A study of Mus musculus with 31 samples.

Results

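The comparison set 4 ganglion soma libraries of batch 1 (biological replicates 1 to 4) against 4 of batch 2 (biological replicates 5 to 8), 8 of the 31 libraries of the study, chosen as all Cre-positive somas. Each library is ribosome-bound RNA from lumbar dorsal root ganglia of Nav1.8-Cre;L10a-eGFP-fl/fl mice (the genotype label; the sample titles spell the allele L10a-eGP), recovered by translating ribosome affinity purification (TRAP), in which an antibody to a tagged ribosome pulls down the messenger RNA that the ribosome carries. The floxed allele encodes ribosomal protein L10a fused to eGFP, and the Nav1.8 promoter (gene Scn10a) decides which cells recombine it, so the tag marks a lineage and not all ganglion cells. Both batches have the same labelled tissue and genotype, and the batch number is the only labelled difference between them. The control somas are L10a-eGFP-fl/fl ganglia without Cre, 4 in each batch, and carry the same floxed allele. Age and the number of animals behind a library are not given in the sources used here.

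Nav1.8 is a voltage-gated sodium channel of small-diameter sensory neurons, most of which detect painful or thermal stimuli. Messenger RNAs of ion channels, neuropeptides and transcription factors come mostly from single-copy genes. Housekeeping messages, such as those of ribosomal proteins, glycolytic enzymes and actins, have been copied back into the genome many times as processed pseudogenes, intronless copies that can be nearly identical to the parent gene. Genes can also lie opposite each other, with exons on both strands of the same stretch of DNA, and a count of a gene of either kind depends on how reads shared by several genes are assigned.

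The 8 libraries held 7.56 M to 11.6 M counts in batch 1 and 15.6 M to 19.6 M in batch 2. Genes with at least 10 counts numbered 13324 ± 655 in batch 1 and 15627 ± 122 in batch 2 (SD, n = 4 each; exact two-sided permutation test, p = 0.0286, the smallest p that 4 against 4 allows). After each library was thinned to the depth of the shallowest, the difference in genes without an opposite exon was -109 (exact permutation p = 0.771), and in genes with an opposite exon it was 980 (exact permutation p = 0.0286). The rank correlation of gene counts across 14899 genes, taken between a batch 1 and a batch 2 library, had a median of 0.874 over the 16 pairs. It was 0.938 for genes without an opposite exon, beside 0.912 within batch 1 and 0.975 within batch 2. For genes with more than 50% of their exon length opposite another gene it was 0.305, beside 0.817 and 0.953 within the batches. Of these, 109 of 255 with 50 to 90% opposite and 135 of 142 with over 90% had at most 3 counts in every batch 1 library. Such genes passed the filter only through batch 2, so the 0.305 is in part a product of the filter. Genes are not independent replicates. Over all genes tested the lowest of the 16 correlations was 0.793, and 0.858 without replicate 4 of batch 1, the shallowest library. The Nav1.8 gene itself was alike within 2-fold. Scn10a had 329, 445, 401 and 457 normalised CPM, its counts scaled to library size, in batch 1 and 306, 378, 332 and 440 in batch 2, overlapping ranges (log2 fold change -0.16 ± 0.23, SE, 95% interval -0.67 to 0.34, adjusted p = 0.791). Here and below a log2 fold change is batch 2 over batch 1, and a gene counts as higher or lower where edgeR's quasi-likelihood test gave an adjusted p under 0.05.

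Of 14899 genes tested, 1444 (9.69%) differed, 1242 higher in batch 2 (8.34%) and 202 lower (1.36%). The genes to be set aside held most of them. Among 5273 genes with an exon opposite another gene, 1136 were higher and 44 lower, and among the 9626 without, 106 were higher (1.1%) and 158 lower (1.64%), together 2.74%. That last split depends on the fit: 73 were higher and 41 lower when genes with an opposite exon were taken out before normalisation, and 146 and 385 with DESeq2. The difference grew with the share of exon length that lay opposite. Genes with 1 to 5% opposite had 85 higher of 1494, those with 5 to 20% had 329 of 1985, those with 20 to 50% had 391 of 967, and those with 50 to 90% had 180 of 255. In the class over 90%, 140 of 142 were higher. However, 135 of the 142 had at most 3 counts in every batch 1 library and so entered the test only through batch 2. That share is largely a product of the filter. Among genes with more than 3 counts in some batch 1 library, 102 of 9622 without an opposite exon were higher, 212 of 1868 with 5 to 20% opposite, 229 of 805 with 20 to 50%, 71 of 146 with 50 to 90% and 5 of 7 with over 90%. The median log2 fold change was -0.11 for no opposite exon, 1.49 for 20 to 50%, 4.62 for 50 to 90% and 9.82 for over 90%. For genes with at most 3 counts in every batch 1 library the fitted value depends on the prior count; with those genes set at the bound that 3 counts per library allow, the last medians are 2.93 and 4.89.

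**Figure D1:**
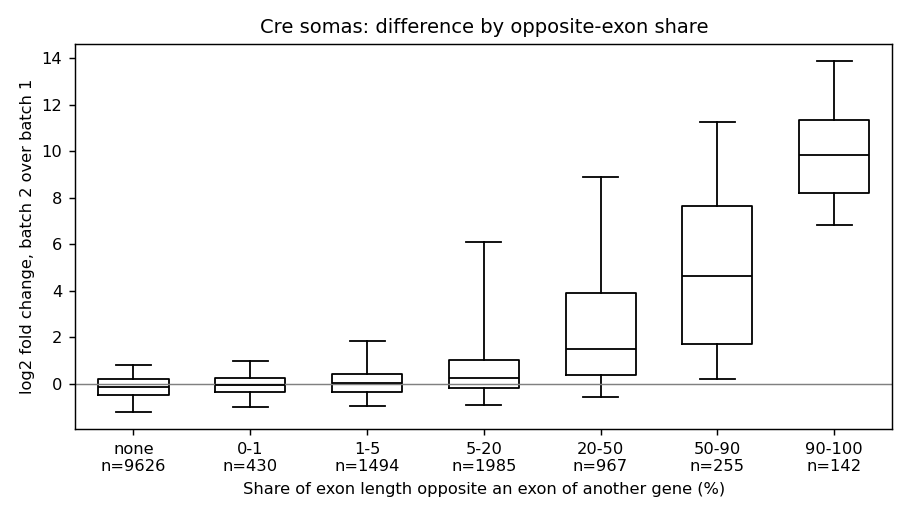
Log2 fold change of Cre somas, batch 2 over batch 1, by the share of exon length opposite an exon of another gene, in 7 classes with the number of genes under each. Boxes show the quartiles and median and whiskers the 5th to 95th percentile; the median rises from -0.11 without an opposite exon to 9.82 in the class over 90%, where fitted values of genes near 0 counts in batch 1 are no bound.

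Ilk, the integrin-linked kinase, shows the pattern gene by gene; it was chosen after its values were seen. Of its exon length (GRCm38, chromosome 7, 105736592 to 105742925), 89.7% lies opposite other genes, most of it (76.7%) opposite Taf10, a subunit of the general transcription factor TFIID. Ilk had 1, 0, 0 and 1 counts in batch 1 and 3064, 1746, 2409 and 2796 in batch 2. Taf10, with 45.9% of its exon length opposite, had 1283, 1219, 1510 and 456 counts in batch 1 and rose by a log2 fold change of 1.12 ± 0.30 (SE, adjusted p = 0.0347). The genes with an opposite exon that the naming rule picked first were Gm26596, Gm26530 and Gm26819. Of their exon length, 18.9%, 12.1% and 81.3% lie opposite Atxn7l3b, Rtca and Med10. Gm26596 had 1, 0, 0 and 1 counts in batch 1 and 5145, 8299, 7348 and 5854 in batch 2, and Gm26530 and Gm26819 had at most 1 count in every batch 1 library. Med10, a Mediator subunit with 92.8% of its exon length opposite Gm26819 and other genes, rose with it (log2 fold change 7.53 ± 0.40, SE, adjusted p = 5.95e-07). Atxn7l3b and Rtca did not pass (log2 fold changes 0.83 ± 0.28 and 1.31 ± 0.58, SE, adjusted p = 0.0997 and 0.24). Genes annotated as antisense RNAs with an opposite exon were higher in 358 of 577 cases. Of these 577, 261 had at most 3 counts in every batch 1 library and so entered the test only through batch 2. That share is thus in part a product of the filter. Antisense genes without an opposite exon were higher in 0 of 67 cases (1 lower, 13 at an unadjusted p under 0.05).

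Known sensory and regulatory genes were among those with such overlaps. Nr1d1, the clock repressor REV-ERB alpha, has 8.55% of its exon length opposite Thra and had 3.81, 3.10, 1.82 and 3.83 normalised CPM in batch 1 and 65.5, 130, 70.1 and 60.8 in batch 2 (log2 fold change 4.70 ± 0.38, SE, adjusted p = 4.85e-06). Piezo1, a mechanically gated channel, has 24.6% opposite Ctu2 and went from 0.308 ± 0.376 to 7.18 ± 3.07 normalised CPM (SD, n = 4; adjusted p = 0.00555). Junb, an immediate early transcription factor, has 7.52% opposite Prdx2 and went from 26.8 ± 15.8 to 93.4 ± 11 (SD, n = 4; adjusted p = 0.00648). In all 3 genes the Cre soma batches did not overlap. In the control somas Nr1d1 and Junb had log2 fold changes of 4.81 and 4.26 (edgeR, adjusted p = 0.236 and 0.246). Piezo1 had -3.56 there (adjusted p = 0.401), with 70.5, 0.386, 0 and 359 normalised CPM in the batch 1 controls. Batch 1 thus does hold counts of Piezo1, and its Cre soma counts in batch 1 were 7, 5, 0 and 0. Of the genes with an opposite exon that were lower in batch 2, the rule picked Lipe, hormone-sensitive lipase (32.0 against 2.49 normalised CPM), Timm10b, of the mitochondrial import machinery (44.7 against 9.48), and Pcdhga12, a clustered protocadherin (40.5 against 1.10). Of the 1136 genes with an opposite exon that were higher, 553 had at most 3 counts in every batch 1 Cre soma, and 322 had at most 3 in all 16 batch 1 columns, axons and controls included.

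With those genes set aside, the protein-coding genes still higher in batch 2 were mostly parents of processed pseudogenes. This class was chosen after the data were seen. Of 8840 protein-coding genes tested without an opposite exon, 990 are the closest match of at least 1 annotated processed pseudogene; 79 of these were higher and 16 lower. The 7850 others had 10 higher and 113 lower (0.127% and 1.44%, together 1.57%). The count of higher genes grew with the number of pseudogenes, from 9 of 637 with 1 pseudogene to 20 of 114 with 3 to 5, 15 of 50 with 6 to 10 and 29 of 50 with 11 or more, where the median log2 fold change was 1.71. The likeness of the closest copy sorted them further. Among parents whose closest pseudogene matched over at least 200 bases, 69 of 236 (29.2%) were higher where the identity was 99% or more, 3 of 96 at 98 to 99%, 5 of 189 at 96 to 98%, 1 of 135 at 94 to 96%, 0 of 135 at 92 to 94% and 0 of 141 at 90 to 92%. Adding the counts of the annotated pseudogenes to each parent left the number of higher parents at 79.

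**Figure D2:**
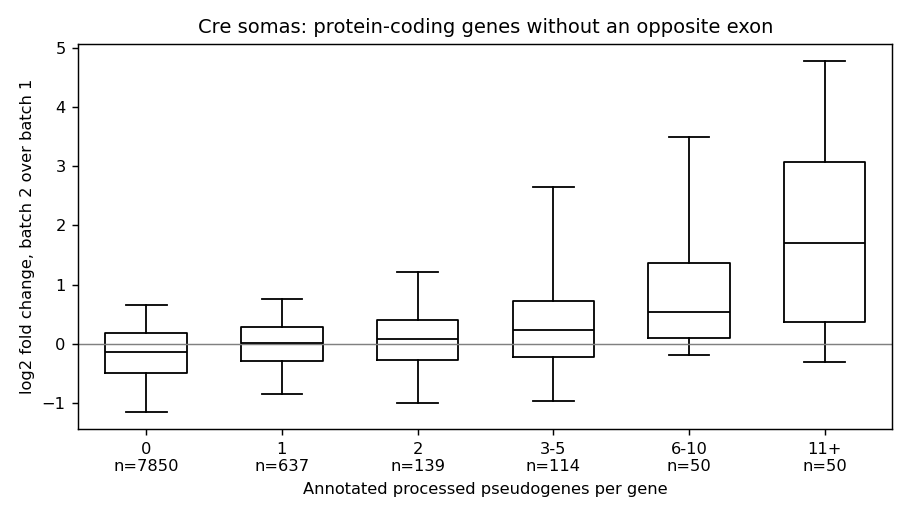
Log2 fold change of Cre somas, batch 2 over batch 1, of protein-coding genes without an opposite exon, by number of annotated processed pseudogenes, with the number of genes under each class. Boxes show quartiles and median and whiskers the 5th to 95th percentile; the median is -0.13 with 0 pseudogenes and 1.71 with 11 or more.

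**Figure D3:**
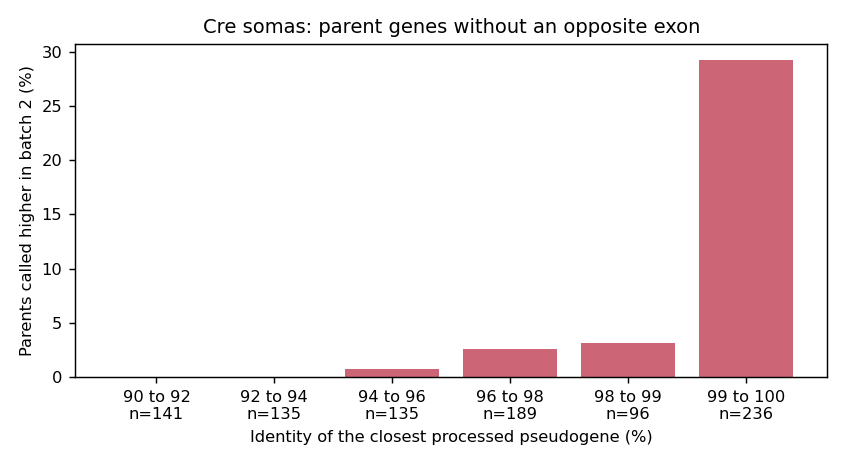
Share of parent genes without an opposite exon that were higher in batch 2, by the identity of the closest processed pseudogene over at least 200 matching bases, with the number of parents under each bar. The share is 29.2% at 99 to 100% identity and at most 3.13% in every lower class.

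Coding sequences of some of these genes are set beside a close copy. The stretches below are 120 coding bases, 5′ to 3′ on the gene's strand, read from GENCODE M21 transcripts (GRCm38), in lower case with bases that differ from the copy in capitals. A read that lies wholly within any of the first 3 matches both copies equally. How such reads were assigned in either batch was not tested. Rpl9, a protein of the large ribosomal subunit (chromosome 5, 65388364 to 65391444, minus strand), is identical over its first 120 coding bases to the pseudogene Rpl9-ps4 (chromosome 13, 72454762 to 72455340). Rps27, of the small subunit (chromosome 3, 90212522 to 90213651, minus strand), is identical there to its annotated retrogene Rps27rt (chromosome 9, 114982366 to 114982739). Ndufb4, a subunit of respiratory complex I (chromosome 16, 37647170 to 37654453, minus strand), is identical there to Ndufb4c (chromosome 15, 73809507 to 73809896). Rps3, also of the small subunit (chromosome 7, 99477896 to 99483738, minus strand), differs from Gm8130 (chromosome 16, 23050282 to 23050851) at 6 of coding bases 181 to 300.
Rpl9 and Rpl9-ps4: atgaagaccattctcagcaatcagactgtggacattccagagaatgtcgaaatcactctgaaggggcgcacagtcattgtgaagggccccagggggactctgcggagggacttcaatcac
Rps27 and Rps27rt: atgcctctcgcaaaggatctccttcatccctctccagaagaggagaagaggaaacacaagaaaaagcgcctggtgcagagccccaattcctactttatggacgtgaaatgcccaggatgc
Ndufb4 and Ndufb4c: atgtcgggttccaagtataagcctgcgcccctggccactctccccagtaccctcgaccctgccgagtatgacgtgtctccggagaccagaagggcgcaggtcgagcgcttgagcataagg
Rps3: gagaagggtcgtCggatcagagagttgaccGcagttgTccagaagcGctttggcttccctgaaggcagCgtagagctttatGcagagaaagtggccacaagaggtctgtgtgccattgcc
Gm8130: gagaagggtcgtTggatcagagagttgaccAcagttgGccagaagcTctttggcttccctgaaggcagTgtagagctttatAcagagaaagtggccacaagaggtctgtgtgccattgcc

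These 4 genes gave 3 outcomes. Rpl9 had 4.90, 3.67, 6.32 and 2.99 normalised CPM in batch 1 and 181, 295, 321 and 202 in batch 2, and was the gene with the smallest adjusted p among higher protein-coding genes without an opposite exon (log2 fold change 5.80 ± 0.36, SE, adjusted p = 1.20e-06). Rps27 and its retrogene moved in opposite directions: Rps27, named after its values were seen, had 28, 51, 93 and 39 counts in batch 1 and 752, 1057, 1051 and 629 in batch 2, and Rps27rt had 33, 46, 377 and 131 in batch 1 and 0, 1, 0 and 0 in batch 2. Ndufb4 had 64.3, 72.7, 155 and 107 normalised CPM in batch 1 and 11.5, 5.13, 13.3 and 7.97 in batch 2, so it fell by 3.39 on the log2 scale (SE 0.39, adjusted p = 8.48e-05, and 0.236 with all 4 soma groups in 1 fit). Its 2 pseudogenes together had at most 2 counts in any library, and adding them left the value at -3.39. Rps3 had 507, 495, 880 and 258 normalised CPM in batch 1 and 438, 554, 658 and 456 in batch 2, overlapping ranges (log2 fold change -0.02 ± 0.34, SE, adjusted p = 0.987).

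Ribosomal protein genes carried this division within a single complex. Of 48 genes of the large subunit tested, 28 were higher and 1 lower in batch 2, and of 33 of the small subunit 20 were higher and 0 lower. Among genes without an opposite exon whose closest pseudogene was at least 98% identical over 200 bases or more, 30 of 45 were higher (median log2 fold change 2.08) and 15 were not. Among those whose closest pseudogene was less alike, 0 of 11 were higher (median -0.40, range -0.62 to 0.17), and of 6 with no pseudogene of that matching length 1 was higher and 1 lower. Beyond Rpl9, the rule named Rps13 (11.9 ± 2.80 against 257 ± 65.4 normalised CPM, SD, n = 4), Rpl17, Rps16, Rpl19, Rpl11 and Rps23. Their log2 fold changes were from 3.26 to 4.77, with 7 to 53 pseudogenes each. The rule takes only genes with at least a 2-fold change and no overlap of the batches, so both were conditions of being named. Rpl5, which has both 10 pseudogenes and 24.3% of its exon length opposite Fam69a, went from 3.12 ± 0.83 to 144 ± 25.1 normalised CPM (SD, n = 4). Rpl8, Rpl38 and Rps15 did not pass. The closest pseudogenes of Rpl8 (over less than 200 matching bases) and Rpl38 are 100% identical, and that of Rps15 is 97.7% identical. They had log2 fold changes of -0.20 ± 0.30, 0.20 ± 0.37 and 0.17 ± 0.36 (SE) and adjusted p of 0.809, 0.846 and 0.873. Rpl10a encodes the protein that carries the tag. It had 42.6, 39.2, 49.0 and 12.4 normalised CPM in batch 1 and 107, 148, 149 and 113 in batch 2, without overlap (log2 fold change 1.85 ± 0.37, SE, adjusted p = 0.00519, and 0.999986 with all 4 soma groups in 1 fit). Of 48 named genes that passed and were followed into that joint fit, 34 did not pass in it. It shares its estimate of spread with the more variable controls. Taf10, Med10, Uchl1os, Ndufa5, Csf1r, Tagln and Egfl7 were not among the 48. Rpl10a has 7 pseudogenes and 2.10% of its exon length opposite another gene, and whether reads of the tagged allele are counted under it was not tested.

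In glycolysis 4 of 16 genes were higher and 0 lower, and 3 of the 9 without an opposite exon. Among them were Pgk1, phosphoglycerate kinase (11.8 ± 3.04 against 87.2 ± 10.5 normalised CPM, SD, n = 4, 4 pseudogenes), and Gapdh, with 124 pseudogenes and 1.65% of its exon length opposite Iffo1 (147, 90.6, 28.8 and 2.51 normalised CPM in batch 1 against 963, 911, 1422 and 1487 in batch 2). Aldoa, aldolase A, with 2 pseudogenes no more than 92.1% identical and 0.859% of its exon length opposite Fam57b, did not pass (log2 fold change 0.36 ± 0.35, SE, adjusted p = 0.666). Of the cytoplasmic actins, Actg1 with 12 pseudogenes went from 6.07 ± 5.36 to 499 ± 172 normalised CPM (SD, n = 4; adjusted p = 0.000129), while Actb, whose 3 pseudogenes are at most 91.0% identical, went from 2623 ± 637 to 4232 ± 1290 and did not pass (adjusted p = 0.258). Of the heat shock proteins, Hspa8 and Hsp90aa1 rose (log2 fold changes 1.5 ± 0.24 and 1.78 ± 0.31, SE, adjusted p = 0.000946 and 0.0019), and Hsp90ab1, whose pseudogenes are at most 92.3% identical, had 0.42 ± 0.27 (adjusted p = 0.466). Of the nuclear RNA-binding proteins, Hnrnpa1 (16 pseudogenes) and Hnrnpa3 (33) rose by 2.87 ± 0.25 and 2.19 ± 0.39 on the log2 scale (SE), and Hnrnpa2b1, with 1 pseudogene 93.6% identical, had -0.58 ± 0.29 (adjusted p = 0.31). Other higher genes were Cox7c of complex IV (log2 fold change 2.71 ± 0.29, SE), Atp5g2 and Atp5l of ATP synthase (3.77 ± 0.39 and 4.63 ± 0.54; 2.06% of the exon length of Atp5l lies opposite Gm30934), Mrpl23 of the mitochondrial ribosome (2.88 ± 0.35), Psma3 of the proteasome (1.55 ± 0.34), Eef1g of the elongation factors (1.47 ± 0.29) and Stmn1, a tubulin-binding protein (2.10 ± 0.37). Beside 8.34% higher over all genes, complex IV had 1 higher and 0 lower of 11, ATP synthase 3 and 3 of 17, the mitochondrial ribosome 2 and 2 of 63, the proteasome 1 and 0 of 31, translation factors 3 and 1 of 39 and the cytoskeleton list 2 and 0 of 22. Each of the 7 named has a pseudogene at least 99.6% identical over the aligned bases. Among all parents without an opposite exon, 69 of 236 (29.2%) were higher where that identity was 99 to 100% over 200 bases or more.

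Across the 44 gene lists, 686 genes were tested and 77 were higher in batch 2. Of these 77, 29 had an opposite exon (of 192 tested) and 48 had none but were parents of a processed pseudogene (of 168 tested). Over all genes tested, 1136 of 5273 with an opposite exon and 79 of 990 such parents were higher. Ribosomal protein genes made up much of the 48, with 17 of the large and 14 of the small subunit. Among the 326 list genes with neither feature 0 were higher and 10 were lower, beside 10 higher and 113 lower of 7850 protein-coding genes of that kind over all genes tested.

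**Figure D4:**
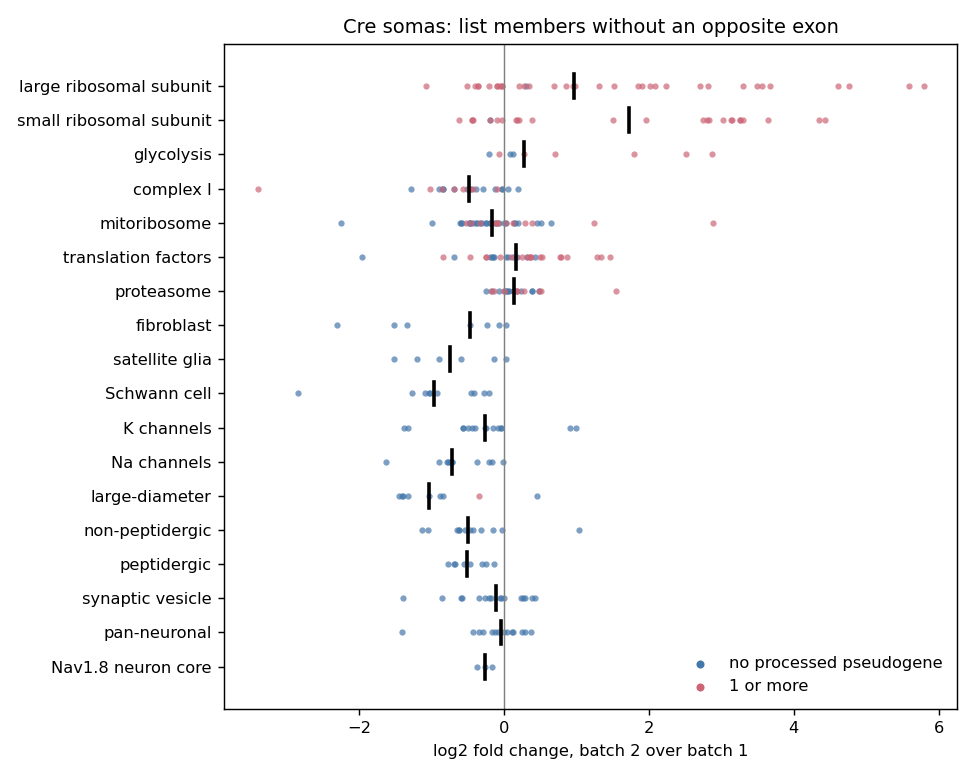
Log2 fold change, batch 2 over batch 1, of each member without an opposite exon in 18 gene lists; a point is a gene, coloured by whether it has a processed pseudogene, and a black bar is the list's median. Neuronal lists lie near 0 or below it, and the points above 2 are parents of pseudogenes, most of them ribosomal protein genes.

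No gene of the Nav1.8 core, pan-neuronal, synaptic vesicle or sodium channel lists was called, beside 1.57% of protein-coding genes with neither feature. In the 4-gene core of the Nav1.8 lineage all 4 log2 fold changes had a 95% interval within 2-fold (median -0.21). Over all genes tested, 4501 of 14899 (30.2%) did. That share depended on the mean level. Among protein-coding genes with neither feature it was 0.408% in the lowest quartile of level and 59.2% in the highest. Whether the lists differ in this from genes of like level was not tested. In the pan-neuronal list 0 of 15 genes were called and 10 lay within 2-fold (median -0.08), and in the synaptic vesicle list 0 of 23 and 13 (median -0.06). The sodium channels had 0 of 12 called and 4 within 2-fold, but all 12 values were below 0 (median -0.72). Prph, the intermediate filament peripherin, had 7957, 5601, 6186 and 3633 normalised CPM in batch 1 and 4351, 5635, 4495 and 5004 in batch 2 (log2 fold change -0.26 ± 0.29, SE, adjusted p = 0.718). Calca, which encodes the neuropeptide CGRP, had 920 to 2578 in batch 1 and 898 to 1940 in batch 2 (-0.13 ± 0.38, adjusted p = 0.909). Ret, the receptor of the GDNF family, had -0.54 ± 0.27 (adjusted p = 0.312), and Mrgprd, a receptor of non-peptidergic nociceptors, had -0.32 ± 0.26 (adjusted p = 0.59). Vamp2, of the synaptic vesicle, had -0.20 ± 0.27 (adjusted p = 0.779). Uchl1 (PGP9.5) and Nefm, with 18.1% and 19.2% of their exon length opposite another gene, had -0.36 ± 0.37 and -0.15 ± 0.41 (adjusted p = 0.698 and 0.906), while Uchl1os, the antisense gene opposite Uchl1, rose by 6.71 ± 0.64 on the log2 scale (SE, adjusted p = 1.88e-05).

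Not all neuronal lists were shown to be alike to that precision. The peptidergic, non-peptidergic and large-diameter lists had 0 called of 9, 14 and 11 genes, with only 1, 2 and 1 of them within 2-fold and medians of -0.47, -0.44 and -0.89. Fam19a4, a marker of low-threshold C fibres, had 80.9 ± 24.3 against 63.7 ± 13.8 normalised CPM (SD, n = 4; adjusted p = 0.604), and Piezo2, the touch channel, 406 ± 164 against 306 ± 52.2 (adjusted p = 0.536). The identity factor Isl1 had 328 ± 103 against 343 ± 34.2 (adjusted p = 0.936). Tlx3, a homeobox factor of sensory lineages, was the exception among 11 sensory transcription factors: it had 223, 176, 256 and 238 normalised CPM in batch 1 and 72.9, 114, 41.2 and 64.3 in batch 2, without overlap (log2 fold change -1.61 ± 0.31, SE, adjusted p = 0.00389). Trpc1, a cation channel, was lower by the test (-1.43 ± 0.40, adjusted p = 0.0411), but its adjusted p was 0.0577 to 0.133 in 6 of 8 fits that each left out 1 library.

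**Figure D5:**
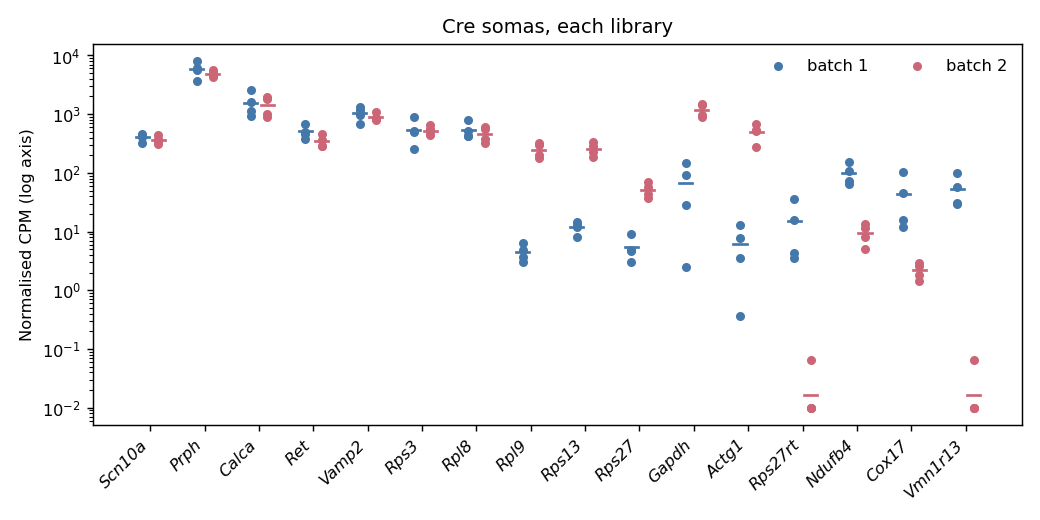
Normalised CPM (log axis) of 16 genes in each Cre soma library, 4 points a batch, with a bar at the mean; values of 0 are drawn at 0.01. Neuronal genes, Rps3 and Rpl8 overlap between batches, whereas Rpl9, Rps13, Rps27, Gapdh and Actg1 are higher and Rps27rt, Ndufb4, Cox17 and Vmn1r13 lower in batch 2 without overlap.

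Genes lower in batch 2 were of another kind. Vmn1r13, a vomeronasal receptor gene with no opposite exon and no pseudogene, had 278, 315, 591 and 826 counts in batch 1 and 0, 1, 0 and 0 in batch 2. The rule named Cox17, a copper chaperone of cytochrome oxidase (44.3 ± 42.5 against 2.18 ± 0.66 normalised CPM, SD, n = 4), Mrpl33, of the mitochondrial ribosome (233 ± 89.3 against 49.1 ± 7.32), and Etfb, of the electron transfer flavoprotein (116 ± 36.7 against 23.5 ± 4.97). It also named Phpt1, a histidine phosphatase (62.9 against 10.1), Nrn1l, a neuritin relative (7.43 against 0.358), and Nanos3, a germ-cell RNA-binding factor (16.1 against 3.09). Etfb, Nrn1l and Phpt1 share 58.2%, 74.2% and 38.9% of their exon length with a gene on the same strand. In complex I, 3 of 37 genes were lower and 0 higher (median -0.43), beside 1.36% lower over all genes, and 2 of the 23 without an opposite exon were lower. They were Ndufb4 above, Ndufa5, and Ndufa3 (701 ± 215 against 260 ± 49.5 normalised CPM, adjusted p = 0.0051), which has 0.391% of its exon length opposite Tfpt; the abundant Ndufa4 had -0.56 ± 0.25 (adjusted p = 0.249). Eef1a2, the elongation factor form of mature neurons and muscle, went from 76.0 ± 39.4 to 19.7 ± 8.50 (adjusted p = 0.00931). The 113 lower genes without an opposite exon or pseudogene lay mostly among short and GC-rich genes: 69 of 1963 in the shortest quartile of exon length against 6 of 1963 in the longest, and 61 of 1961 in the highest quartile of GC content against 14 of 1961 in the lowest. That count is the least stable one. With genes that have an opposite exon taken out before normalisation and the fit, 21 of the 7850 were lower and 2 higher, and the median of all genes without an opposite exon moved from -0.11 to 0.00; without replicates 5, 7 or 8 of batch 2 the calls numbered 38, 42 and 37, and without replicates 3 or 4 of batch 1 they numbered 192 and 195.

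Of 47 markers of other ganglion cells tested, 2 were higher and 2 lower (8.51%), beside 9.69% of all genes. The higher ones were Csf1r of macrophages and Tagln of mural cells, both with an opposite exon. The lower ones were Egfl7 of endothelial cells (also with one) and Col1a1 of fibroblasts. Schwann cell markers had 0 of 12 called, with 11 of 12 log2 fold changes below 0 (median -0.97) and a summed share of all counts of 0.0802 to 0.244% in batch 1 and 0.0666 to 0.0829% in batch 2. S100b, a glial calcium-binding protein, had 448 ± 157 against 222 ± 59.9 normalised CPM (SD, n = 4; adjusted p = 0.0643). Satellite glia markers had 0 of 8 called (median -0.74; 0.0178 to 0.0673% against 0.0191 to 0.0384%). Fibroblast markers had 1 of 8 lower, Col1a1, with 47.0, 371, 160 and 450 normalised CPM in batch 1 and 43.7, 109, 23.2 and 33.3 in batch 2, overlapping ranges whose adjusted p of 0.0435 was 0.0905 to 0.151 in 5 of the 8 fits that left out 1 library. Macrophage markers summed to at most 0.00521% in any library, C1qa among them with 6.76 ± 6.88 against 2.79 ± 1.25 normalised CPM (adjusted p = 0.334). In these bulk samples fewer cells of a type and less RNA per cell cannot be told apart, and the part of these cells in the lower genes was not tested.

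The control somas give the same comparison without the tag. There, 790 of 10954 genes differed (7.21%), 775 higher (7.08%) and 15 lower (0.137%) in batch 2, with a biological coefficient of variation of 1.55 against 0.439 in the Cre somas. Calls among protein-coding genes with neither an opposite exon nor a pseudogene went the other way. Of 5952 in the controls 185 were higher and 4 lower, against 10 and 113 in the Cre somas. The median log2 fold change of that class was negative in both, -0.35 in the controls and -0.13 in the Cre somas. Control libraries had 4934 to 7889 genes with at least 10 counts in batch 1 and 10014 to 15998 in batch 2. Of 85 genes with over 90% of their exon length opposite, 79 were higher. At most 3 counts in every batch 1 control were found in 79 of the 85, so that share too is largely a product of the filter. Rpl9 was also higher (log2 fold change 5.37, adjusted p = 0.036) and Vmn1r13 lower (adjusted p = 0.0201). Of 50 genes with 11 or more pseudogenes 2 were higher in the controls, 9 at an unadjusted p under 0.05 (median log2 fold change 0.78). The difference between the Cre and control differences passed in 1 of the 50. Ndufb4 had a like value in the fit of the controls alone that did not pass (-3.35 ± 1.62, SE, adjusted p = 0.273). Its batch 1 controls spread widely, at 31.6, 333, 55.4 and 9.83 normalised CPM. The fit that tests the Cre difference minus the control difference gave 2.48 ± 1.63 for Ndufb4 (SE, adjusted p = 0.379). That value does not match the separate fits, which gave -3.39 in the Cre somas and -3.35 in the controls, so it is no measured size. Why the fits differ was not tested. The number of calls in the controls rested on single libraries, from 0 without one of the 2 identically headed batch 1 columns to 1968 without batch 1 replicate 3. The difference between the Cre and control differences passed in 255 of 15104 genes (1.69%), 254 of them lower (1.68%) and 1 higher (0.00662%) in the Cre comparison, and in 0 of 154 genes with over 90% opposite (3 at an unadjusted p under 0.05). It passed in 0 genes in each of 8 fits that left out 1 library, and in 3636 without control replicate 3 of batch 1. The batch number is tied to the table a library was deposited in, so the making of the table and the making of the libraries cannot be told apart.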

How the data were processed

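The 2 deposited tables, 1 a batch, hold whole-number gene counts for 55536 Ensembl identifiers, per the file headers and values; the deposited counts come from alignment with STAR 2.7.2b to mm10, per the submitters' processing notes. Ribosome-bound RNA was amplified with a SMART-Seq v4 kit, per the labels' protocols. The counting tool, its annotation and its handling of strand and of reads with several matches are not given in the sources used here. All 31 columns were mapped by name; 2 batch 1 control columns share 1 header, so they were used as replicates without a number.

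All 55536 identifiers matched GENCODE M21 (GRCm38), from which exons opposite another gene were found. Processed pseudogenes were aligned to protein-coding transcripts with minimap2 2.31-r1302 (at least 100 matching bases, 90% identity and 50% of the pseudogene): 4659 of 10237 were given to 1739 parents. Counts were tested with edgeR 4.0.16 (quasi-likelihood, filterByExpr, TMM) in R 4.3.3, with Benjamini-Hochberg adjustment over all genes tested. Normalised CPM uses TMM-scaled totals. Tested on simulated data for the Cre soma comparison of 14899 genes, the fit recovered 0% of 200 genes changed by 1 and 99.5% of 200 changed by 3 on the log2 scale. Same-group libraries differed by more than sampling noise (chi-square per degree of freedom at least 15.8), so each counted as 1 sample. The labels call them biological replicates.

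Alternatives were RLE factors, library size alone, no low-count filter, DESeq2 1.42.0, limma voom (limma 3.58.1), thinning, other overlap rules, other sets of libraries and leaving out each library. The members and gene lists were chosen with earlier results of these data known. Named genes are Scn10a, Rpl10a and Ndufb4, the 10 smallest adjusted p in each direction among protein-coding genes without an opposite exon (at least 2-fold, no overlap of the batches), 3 in each direction with one, and in each list called members or the 2 most abundant. Some genes that this rule names are not reported here.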

Additional observations from a re-analysis of the deposited data

Results flagged for a closer look

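Single libraries stood apart from the other 3 of their batch (Dixon's test at 95%) in 5 of 140 sets of 4 Cre soma values, and chance alone flags about 1 in 20. Fam19a4 had 44.6 normalised CPM in batch 1 replicate 3, below 90.6 to 95.3 in the others. C1qa had 17 in batch 1 replicate 4, above 2.18 to 4.42. Atp5l had 5.07 in batch 1 replicate 3, above 0.872 to 1.44. The mitochondrial ribosomal RNA mt-Rnr2 had 1240 in batch 1 replicate 4, above 45.8 to 68.7. Nr1d1 had 130 in batch 2 replicate 6, above 60.8 to 70.1.

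The batch difference itself differed between Cre and control somas in 255 genes (edgeR interaction test), and 3 of the genes named here were among them. The Cre difference minus the control difference was -9.60 on the log2 scale for Nanos3, -7.86 for Trpc1 and -7.25 for C1qa. In the batch 1 controls these 3 genes were at or near 0 (at most 0.124, 0.392 and 0.249 normalised CPM), so the fitted differences depend on the prior count and are no measured size.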

How the results depend on the processing

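The count of genes differing in Cre somas (1444) stayed within 1.5 times under RLE factors, library size alone, no low-count filter, DESeq2, limma voom, thinning and each left-out library (1117 to 1793). It was 588 with all 4 soma groups in 1 fit. There, 34 of the 48 named genes followed into it did not pass (adjusted p up to 0.999986). Among genes without an opposite exon (264) it was 531 with DESeq2, 508 when genes with under 10% of exon length opposite were kept, and 134 to 357 with 1 library left out. Among parents of pseudogenes (95) it was 70 to 106 with 1 library left out and 70 to 118 under every alternative. Among genes with neither feature (123) it was 335 with DESeq2, 23 with opposite-exon genes taken out before the fit and 37 to 195 with 1 library left out. That same removal gave 114 over all genes left. The excess of detected genes, 2303 as deposited, was 871 after thinning (exact permutation p = 0.0571) and 2029 to 2534 with 1 library left out. In controls (790) the count was 1535 with library size alone, 49 without the low-count filter and 0 to 1968 with 1 library left out. For the Cre minus control difference (255) it was 3557, 131, 1598 and 0 with library size alone, no low-count filter, DESeq2 and limma voom, and 0 to 3636 with 1 library left out; the cause of these moves was not tested.

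Same-numbered Cre and control libraries within a batch were checked for pairing: the correlation of their deviations ran from -0.02 to 0.23 over 6 pairs, and 2 of 6 Cre libraries matched their own number best, so they share only a number. With the replicate block over 12 libraries the Cre minus control count was 0.

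Values near 0 changed sign: Rps3 (0.0157 with library size alone, 0.0516 without the low-count filter, 0.0895 with limma voom and 0.0881 with opposite-exon genes taken out) and Nefm (0.00366 with limma voom). With 1 library left out the ranges crossed 0 for Calca (-0.32 to 0.21), Nefm (-0.39 to 0.34), Isl1 (-0.0783 to 0.29), Rpl8 (-0.35 to 0.0525), Rpl38 (-0.0136 to 0.51), Rps15 (-0.0164 to 0.57), Rps3 (-0.25 to 0.33) and mt-Rnr2 (-3.24 to 0.00229). A simulated 2-fold change was recovered in 0% of genes when every gene was given the same spread. Real genes differ in spread, and Taf10 passed at a log2 fold change of 1.12, so the 0% is no rate for these data. A 2-fold difference could still go uncalled. The 95% interval lay within 2-fold in 4501 of 14899 genes.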
